A study of Mus musculus with 12 samples.

Results

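The insulin-like growth factor (IGF) axis was described through 10 genes that were listed by symbol: the ligands Igf1 and Igf2, the receptors Igf1r and Igf2r, and the binding proteins Igfbp2, Igfbp3, Igfbp4, Igfbp5, Igfbp6 and Igfbp7. All 10 were found among the 28244 genes of the deposited table, and all 10 were among the 17674 genes that were tested. The RNA came from pellets of murine mesenchymal progenitors, which were digested out of the femoral and tibial heads and condyles of C57/BL6 pups aged 5 or 6 days. Every pellet first received chondrogenic medium for 7 days. The groups were day 7 (D7), the end of that phase, and day 8 (D8), day 10 (D10) and day 28 (D28), which followed 1, 3 and 21 days of osteogenic medium, with 3 libraries in each group. Among these libraries no pellet was kept in chondrogenic medium beyond D7, so medium and time in culture cannot be told apart. The labels do not say whether the replicates were separate cultures or litters, so the p-values measure only the spread between these libraries.

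IGF1 and IGF2 are secreted growth factors that signal through the tyrosine kinase receptor encoded by Igf1r, while the product of Igf2r captures IGF2 and lysosomal enzymes tagged with mannose 6-phosphate and delivers them to lysosomes. The IGF-binding proteins are secreted carriers that hold the ligands in the extracellular space and release them when they are cleaved by proteases. In the growth plate the axis is known for driving longitudinal bone growth, and bone matrix is a large store of IGFs and of their binding proteins.

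Promoter windows are shown for the ligands, which fell together after the change of medium, and for Igfbp3 and Igfbp5, which rose to D28. Each window holds 250 bases before and 50 bases after a transcription start annotated by RefSeq on GRCm38.p6, read 5′ to 3′ on the strand of the gene, and all 10 genes were matched. Capitals mark matches, on either strand, to any of 5 short motifs. The TATA box, which places the start of transcription, was searched as TATAAA. The box bound by the factor NF-Y was searched as CCAAT. The GC box, a site of Sp factors, was searched with the letters GGGCGG. The AP-1 motif, bound by Fos and Jun proteins, was searched with the letters TGANTCA. The Runx motif, bound by the skeletal factor Runx2 among others, was searched with the letters TGTGGT. The printed windows hold no overlapping matches. The Igf1 window lay at chr10:87860861-87861160 on the plus strand, the last of the 4 Igf2 windows at chr7:142657447-142657746 on the minus strand, the Igfbp3 window at chr11:7213874-7214173 on the minus strand and the Igfbp5 window at chr1:72874816-72875115 on the minus strand.
Igf1: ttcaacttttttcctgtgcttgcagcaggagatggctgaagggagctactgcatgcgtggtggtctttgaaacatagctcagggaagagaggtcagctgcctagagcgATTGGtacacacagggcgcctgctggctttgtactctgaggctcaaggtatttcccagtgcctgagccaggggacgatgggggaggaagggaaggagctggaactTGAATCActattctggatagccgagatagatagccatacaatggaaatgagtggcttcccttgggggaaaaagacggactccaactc
Igf2: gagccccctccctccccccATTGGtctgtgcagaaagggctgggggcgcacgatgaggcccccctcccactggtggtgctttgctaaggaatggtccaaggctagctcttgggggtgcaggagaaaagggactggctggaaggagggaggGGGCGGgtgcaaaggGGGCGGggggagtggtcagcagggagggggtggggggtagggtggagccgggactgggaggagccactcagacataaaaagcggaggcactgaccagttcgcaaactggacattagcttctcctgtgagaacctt
Igfbp3: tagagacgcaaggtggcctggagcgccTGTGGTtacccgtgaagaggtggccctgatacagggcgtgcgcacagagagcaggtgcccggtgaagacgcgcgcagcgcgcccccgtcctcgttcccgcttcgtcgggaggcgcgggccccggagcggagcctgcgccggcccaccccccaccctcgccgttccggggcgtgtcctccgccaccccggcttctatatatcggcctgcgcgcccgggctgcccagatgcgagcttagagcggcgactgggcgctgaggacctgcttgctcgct
Igfbp5: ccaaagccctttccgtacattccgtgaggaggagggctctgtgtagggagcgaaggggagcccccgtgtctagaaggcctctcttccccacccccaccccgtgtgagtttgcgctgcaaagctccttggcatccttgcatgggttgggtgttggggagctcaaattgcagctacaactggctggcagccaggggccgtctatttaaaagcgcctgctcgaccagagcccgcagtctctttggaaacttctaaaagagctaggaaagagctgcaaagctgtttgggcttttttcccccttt

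The Igf1 window held a CCAAT box on its minus strand at -142 to -138 and an AP-1 motif at -37 to -31, counted from the start site. The Igf2 window held a CCAAT box at -231 to -227 on its minus strand and GC boxes that began at -100 and at -85. It is the window with the most matches of the 4, chosen after they were counted: the first and second Igf2 windows held none and the third held 1 GC box. The Igfbp3 window held the Runx motif at -223 to -218, and the Igfbp5 window held none of these letters. Among the 32851 RefSeq promoter windows of the same length, 13.6% held the TATA box, 37.4% the CCAAT box, 35.7% the GC box, 7.81% the AP-1 motif and 16.8% the Runx motif. The GC content was 52.3% for Igf1, 63.3% for Igf2, 71.7% for Igfbp3 and 56.3% for Igfbp5, beside a median of 52.7% over all windows. These matches are letters in a window and not measured binding sites.

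Values are given as deposited, on the log2 scale of equalized read counts plus 1, and a difference between time points is a log2 fold change on that scale. The equalization gave the 12 libraries nearly the same set of values, so that a level follows from the rank of a gene in its library. Sorted values above 5 differed between libraries by a median of 0.00284. The original library totals were also removed. Depth is therefore known only in relative terms, with libraries between 0.730 and 1.31. The highest level that corresponded to 3 reads in any library was 2.87, and all values of the 10 genes were above it. Summed chondrocyte markers stood at 21.31 to 21.34 at D7, 21.25 to 21.48 at D8, 20.26 to 20.29 at D10 and 21.22 to 21.25 at D28 on the log2 scale, with 7 of 7 above the 3-read level in every library. Most of this sum is Col2a1, which held the largest value of the table in all D7, D8 and D28 libraries and the same lower value, 19.87, in all D10 libraries, so that its level follows from its rank under the equalization. From D7 to D10, 4 of the 7 fell, namely Acan, Col9a1, Comp and Matn3, and from D10 to D28 Acan, Comp and Matn3 rose. Of 4 markers of hypertrophic chondrocytes, Ihh and Mmp13 (5.69-fold) fell from D7 to D10, Ihh to no more than the 3-read level in at least 1 library, and both rose from D10 to D28, to differences of 0.15 and -0.06 against D7 that were not called. Col10a1 was 7.92-fold lower at D28 than at D7. The 7 osteoblast markers summed to between 18.36 and 19.40 over all libraries while single genes moved apart. From D7 to D10 Bglap (9.51-fold), Dmp1 and Spp1 rose, and Ibsp (81.1-fold), Alpl (9.56-fold), Col1a1 and Sp7 fell. From D10 to D28 Ibsp (28.9-fold), Bglap (5.76-fold), Alpl (5.54-fold) and Sp7 (2.01-fold) rose, and 0 of the 7 were called lower. Against D7, Ibsp and Col1a1 were still lower at D28, and Bglap, Dmp1 and Spp1 were higher. Of the markers of other cells, 7 of 7 adipocyte genes rose between D7 and D28, and their summed level went from 12.70 to 12.81 at D7 to 15.88 to 16.34 at D28. Skeletal muscle markers fell over the same interval in 6 of 6 genes, from 11.05 to 11.47 at D7 to 3.32 to 5.74 at D28, where 1 of 6 was still above the 3-read level in all libraries. Endothelial markers summed to 4.23 to 5.52 at D7, 5.89 to 7.75 at D8, 4.04 to 6.65 at D10 and 4.39 to 5.09 at D28. Kdr and Pecam1 were called higher from D7 to D8, and Cdh5 lower from D8 to D10. These genes lay near the floor, with 3 of 5 above the 3-read level in all D7 libraries and 1 of 5 in all D10 libraries.

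A gene was called when limma gave a log2 fold change of 1 or more in size, up or down, together with a Benjamini-Hochberg adjusted p under 0.05. Within the first osteogenic day (D8 against D7) 1 member was called higher and 1 lower, beside 3.23% higher, 3.81% lower and 7.04% in either direction of all genes tested. Between D8 and D10 the count was 0 higher and 3 lower, beside 4.08% and 5.58%, or 9.66% in all. From D7 to D10 it was 1 higher and 3 lower, beside 8.50% and 10.4%, or 18.9% in all. The interval from D10 to D28 held the most calls, 5 members higher and 2 lower, beside 13.8% and 13.7%, or 27.5% in all. From D7 to D28, 2 members were higher and 4 lower, beside 8.63% and 8.66%, or 17.3% in all. In at least 1 of the 5 comparisons 9 of the 10 members were called, Igfbp4 being the exception, beside 38.2% of all genes tested.

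The 3 libraries of one time point did not overlap those of the other for 4 members from D7 to D8, beside 37.1% of all genes. The same count was 6 members from D8 to D10 beside 44.0%, 7 from D7 to D10 beside 47.5%, 9 from D10 to D28 beside 59.4% and 7 from D7 to D28 beside 46.9%. The median log2 fold change of the members was -0.07, -0.58, -0.60, 1.04 and -0.16 in these comparisons, taken in the same order. Over all genes tested the medians were 0.03, 0.00, 0.05, -0.10 and -0.03. When the libraries were rescaled by median of ratios, the median of all genes from D10 to D28 moved from -0.10 to 0.01, and no member changed direction under it.

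**Figure D1:**
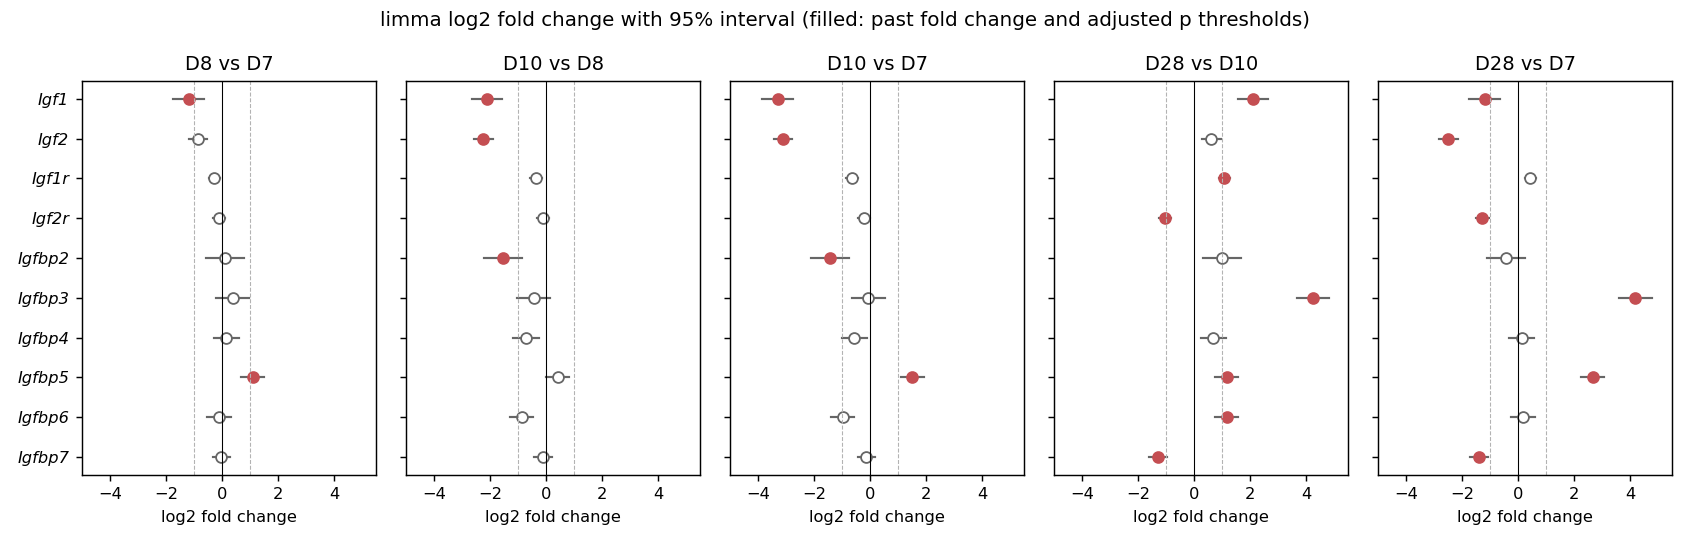
Log2 fold change of each member (rows) in the 5 comparisons (panels), with limma's 95% interval as a bar; filled points passed both the fold change and the adjusted p thresholds and dashed lines mark a log2 fold change of 1 in either direction. The ligands lie left of 0 up to D10, at -3.30 for Igf1 and -3.10 for Igf2 from D7 to D10, and Igfbp3 lies farthest right at D28, at 4.24 against D10.

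Both ligand genes fell steeply after the change of medium, and then they parted. Igf1, on chr10:87858265-87937042 of GRCm38, encodes the ligand that acts in postnatal growth. Its values were 11.16, 10.85 and 10.91 at D7, 10.16, 9.46 and 9.74 at D8, 7.28, 7.99 and 7.76 at D10, and 9.10, 10.33 and 9.88 at D28. All D10 libraries were below all others, and the D28 libraries reached back into the range of D8 without overlapping D7. The log2 fold change was -1.19 (SE 0.26, adjusted p = 0.0041) in the first osteogenic day and -2.11 (adjusted p = 4.2e-05) from D8 to D10. From D7 to D10 the level dropped 9.84-fold (log2 fold change -3.30, adjusted p = 1.1e-07), and from D10 to D28 it rose 4.28-fold (2.10, adjusted p = 5.9e-06). At D28 it remained below D7 by -1.20 (adjusted p = 0.0017), a call that was lost without D28 replicate 1, at -0.87, and without replicate 1 of every group, at -0.77.

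The spread of Igf1 at D28, 0.62 (SD, n = 3), was the widest of its 4 time points. The summed level of 6 macrophage markers was 10.02, 12.44 and 10.24 in the same 3 libraries, so that replicate 2 was the highest in both. At D10 these markers stood at 9.66 to 10.45, at D8 at 9.73 to 10.08 and at D7 at 10.11 to 10.36. Single markers moved more than this sum. In the interval from D7 to D10, in which Igf1 fell, Adgre1, C1qa and C1qb fell and Cd68 rose, and from D10 to D28 the call was higher for 5 of the 6 and lower for Cd68. At D10 only 2 of the 6 were above the 3-read level in all libraries, and C1qb was at or under it in all 3. Without D28 replicate 2 the log2 fold change of Igf1 from D10 to D28 was 1.81 and from D7 to D28 -1.48, both still called. The part of macrophages or adipocytes in the D28 level of Igf1 was not tested, and in bulk RNA fewer cells of a type and less RNA per cell cannot be told apart.

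Igf2, on chr7:142650766-142666816, encodes the ligand known for fetal growth and is expressed from the paternal allele. It measured 13.01, 12.62 and 12.78 at D7, 11.65, 11.93 and 12.25 at D8, 9.45, 9.99 and 9.65 at D10, and 10.32, 10.24 and 10.39 at D28. The 4 time points did not overlap, with the order D7, D8, D28 and D10 from high to low. The log2 fold change of -0.86 at D8 (SE 0.16, adjusted p = 0.0012) was under the fold threshold with all libraries, and it was past it at -1.01 without D8 replicate 3 and at -1.02 without replicate 3 of every group. Between D8 and D10 Igf2 fell by 2.25 (adjusted p = 2.6e-07), which made the drop from D7 to D10 8.59-fold (-3.10, adjusted p = 2e-09). The difference from D10 to D28 was 0.62 (adjusted p = 0.0037, not called), and D28 remained 5.61-fold below D7 (-2.49, adjusted p = 1.3e-08). Skeletal muscle markers moved with it down to D10, summing to 11.05 to 11.47 at D7, 9.07 to 9.87 at D8 and 7.39 to 8.02 at D10. From D10 to D28 they went on falling in 4 of 6 genes, while the Igf2 difference was 0.62. The chondrocyte markers Acan, Col9a1, Comp and Matn3 also fell from D7 to D10, as did 4 of the 7 adipocyte markers, which summed to 11.50 to 11.68 at D10. The part of muscle cells, chondrocytes and adipocytes in the ligand results was not tested.

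Per kilobase of exon the Igf2 transcript was above the Igf1 transcript in every library. The ratio of the unlogged levels per kilobase was 5.87 to 6.35 at D7, 4.87 to 9.85 at D8, 6.46 to 7.83 at D10 and 1.61 to 4.03 at D28. The D28 range lay under all the others, as the plot of the ligand ratio shows. The ratio is a description and was not tested.

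The antisense transcripts at the ligand genes are reported because the strand setting of the read counting is not given in the sources used here. Igf1os, which overlaps the upstream part of Igf1, was at or under 1.84 in all 12 libraries. Igf2os, antisense to Igf2, measured 7.28, 7.31 and 7.08 at D7 and 5.40, 5.20 and 5.07 at D28. It fell by 1.42 from D7 to D10 (SE 0.24, adjusted p = 2.4e-04) and by 2.00 from D7 to D28 (adjusted p = 1.1e-05).

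**Figure D2:**
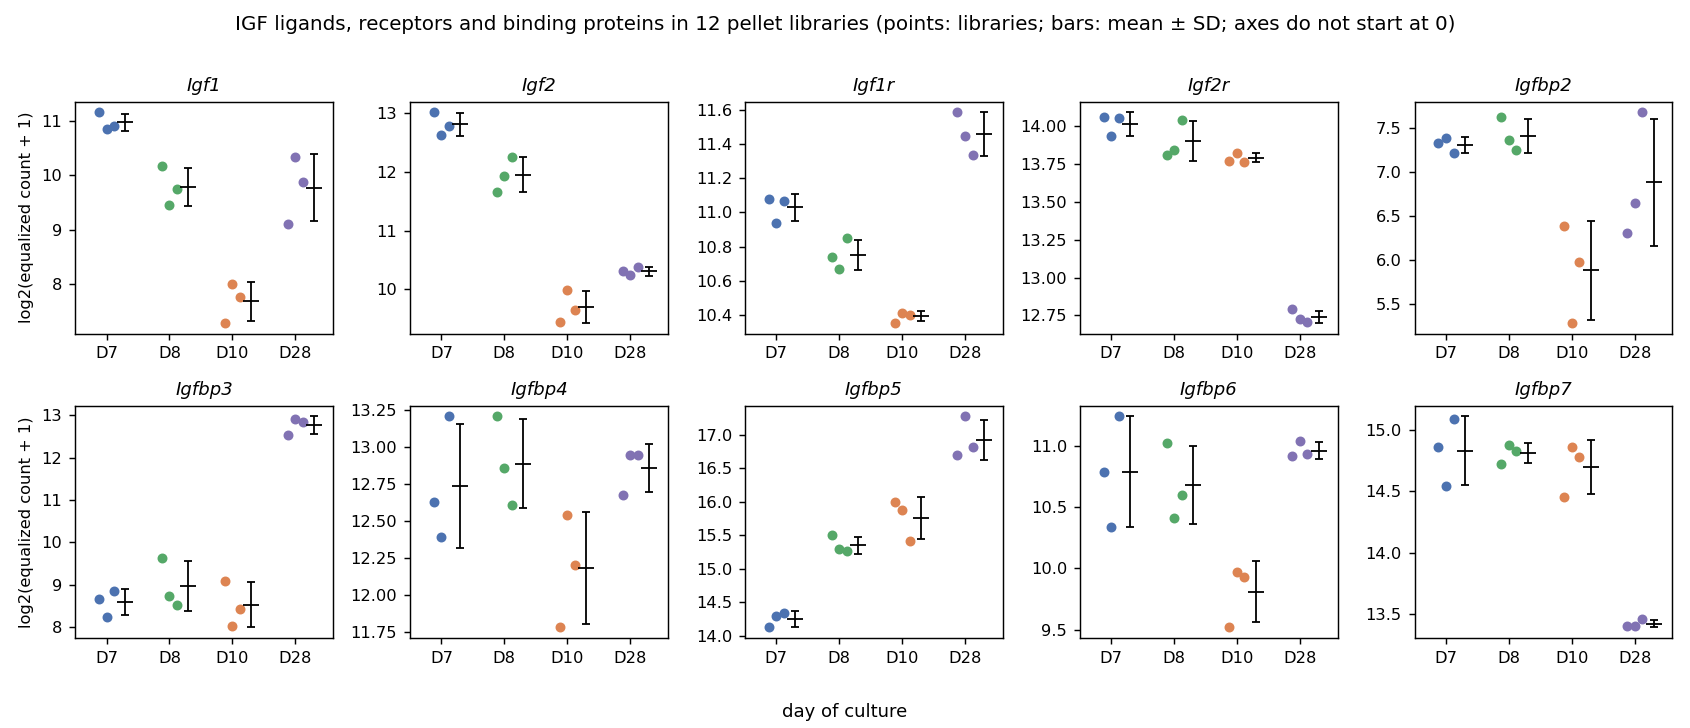
Deposited log2 values (vertical axes, equalized count plus 1) of the 10 members at D7, D8, D10 and D28 (horizontal axes); each point is a library and bars give the mean ± SD of 3 libraries. Igf1 and Igf2 are lowest at D10, the mean of Igfbp5 is higher at each later time point, and Igfbp3 stands apart at D28 at 12.53 to 12.92.

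The 2 receptor genes moved in opposite directions between D10 and D28. Igf1r, on chr7:67952827-68233668, encodes the signalling receptor of both ligands. It measured 11.08, 10.94 and 11.07 at D7, 10.74, 10.67 and 10.85 at D8, 10.35, 10.41 and 10.40 at D10, and 11.59, 11.45 and 11.34 at D28. No 2 time points overlapped, D10 being the lowest and D28 the highest. From D10 to D28 Igf1r rose 2.11-fold (log2 fold change 1.07, SE 0.10, adjusted p = 2e-07), and the value was 0.99, under the fold threshold, without replicate 1 of every group. The differences of -0.64 from D7 to D10 (adjusted p = 7.1e-05) and 0.43 from D7 to D28 (adjusted p = 0.0022) were under the fold threshold.

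Igf2r, on chr17:12682406-12769664, encodes the receptor that clears IGF2 and sorts lysosomal enzymes. It was at 14.06, 13.93 and 14.05 at D7, 13.81, 13.84 and 14.04 at D8, 13.77, 13.82 and 13.76 at D10, and 12.79, 12.73 and 12.71 at D28. The first 3 time points lay close together and the D28 libraries were about 1 log2 unit below all of them. Igf2r fell by 1.05 from D10 to D28 (SE 0.10, adjusted p = 6.1e-07) and 2.42-fold from D7 to D28 (-1.28, adjusted p = 1.7e-07). The first of these values became -0.92, under the fold threshold, when the libraries were scaled by median of ratios.

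The antisense transcript Airn, which starts within Igf2r and is known for silencing its paternal copy, measured 8.19, 8.60 and 7.50 at D7 and 7.49, 7.21 and 7.41 at D28. It fell by 1.10 from D7 to D10 (SE 0.25, adjusted p = 0.0025), an interval in which Igf2r differed by -0.23 (adjusted p = 0.093). The Airn value was under the fold threshold without D7 replicate 2, at -0.85, and without D10 replicate 1, at -0.97. Of the 7 genes of mannose 6-phosphate sorting, such as the receptor M6pr and the transferase subunit Gnptab, 1 was called in any comparison, beside 38.2% of all genes: Gnptg, another subunit of that transferase, was higher at D28 than at D7 by 1.02 (SE 0.10, adjusted p = 1.4e-06), and without D7 replicate 2 the value was 0.97.

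Among the binding proteins Igfbp3 and Igfbp5 rose to D28, Igfbp7 fell, Igfbp2 and Igfbp6 had their lowest means at D10, and Igfbp4 was not called. Igfbp5, on the minus strand of chr1:72857932-72874884, encodes a binding protein that attaches to extracellular matrix and to bone mineral. Its values were 14.13, 14.30 and 14.35 at D7, 15.51, 15.29 and 15.26 at D8, 16.00, 15.87 and 15.41 at D10, and 16.69, 17.27 and 16.82 at D28. Only D8 and D10 overlapped. The level rose 2.13-fold within the first osteogenic day (log2 fold change 1.09, SE 0.19, adjusted p = 8.8e-04) and was 6.33-fold higher at D28 than at D7 (2.66, adjusted p = 4.6e-08). From D8 to D10 the difference of 0.41 was not called (adjusted p = 0.13), and from D10 to D28 the rise was 1.17 (adjusted p = 1e-04). Leaving out replicate 1 of every group brought the D8 value to 0.95, and leaving out D10 replicate 3 or D28 replicate 2 brought the value from D10 to D28 to 0.99, all under the fold threshold.

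Igfbp3, on chr11:7206086-7213923, encodes the main carrier of IGFs in blood. It measured 8.67, 8.24 and 8.85 at D7, 9.64, 8.75 and 8.53 at D8, 9.10, 8.04 and 8.44 at D10, and 12.53, 12.92 and 12.84 at D28. The first 3 time points overlapped one another and the D28 libraries stood above all of them. The rise was 18.8-fold against D10 (log2 fold change 4.24, SE 0.27, adjusted p = 6e-09) and 18.1-fold against D7 (4.18, adjusted p = 2e-08). The differences among D7, D8 and D10 were -0.44 to 0.39 and were not called. The summed adipocyte markers went from 11.50 to 11.68 at D10 to 15.88 to 16.34 at D28. In the same interval 4 of 7 osteoblast, 3 of 7 chondrocyte and 5 of 6 macrophage markers were called higher and Cd68 lower. The part of any of these cells in the Igfbp3 level was not tested.

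Igfbp7, on the minus strand of chr5:77349240-77408041, encodes a secreted protein that binds IGFs weakly. It measured 14.86, 14.54 and 15.09 at D7, 14.72, 14.88 and 14.83 at D8, 14.45, 14.86 and 14.78 at D10, and 13.40, 13.40 and 13.46 at D28. The first 3 time points overlapped and D28 was lower in all its libraries, with a fall of 1.28 against D10 (SE 0.15, adjusted p = 3.9e-06) and of 1.41, or 2.66-fold, against D7 (adjusted p = 2.9e-06).

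Igfbp2, on the plus strand of chr1:72824503-72852474, ends 5457 bases from the end of Igfbp5, which lies on the other strand. It encodes a carrier that is abundant in fetal serum. The values were 7.33, 7.38 and 7.22 at D7, 7.63, 7.36 and 7.25 at D8, 6.39, 5.28 and 5.97 at D10, and 6.30, 6.65 and 7.68 at D28. The D10 libraries were below those of D7 and D8, and the D28 libraries spread across the ranges of all 3 earlier time points. Igfbp2 fell by 1.53 from D8 to D10 (SE 0.32, adjusted p = 0.0025) and by 1.43 from D7 to D10 (adjusted p = 0.0022). From D10 to D28 the difference was 1.00 (adjusted p = 0.017), just under the fold threshold, and over single libraries and replicates left out it ranged from 0.59 to 1.54, with the lowest values without D28 replicate 3 and without replicate 3 of every group. It was called under 6 of the alternatives.

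Igfbp6, on chr15:102144362-102149511, encodes a binding protein that prefers IGF2. It measured 10.79, 10.34 and 11.24 at D7, 11.02, 10.41 and 10.60 at D8, 9.52, 9.97 and 9.93 at D10, and 10.92, 11.04 and 10.93 at D28. All D10 libraries were below all others, and D28 lay within the range of D7. The rise from D10 to D28 was 2.23-fold (log2 fold change 1.16, SE 0.20, adjusted p = 1.4e-04). The differences of -0.87 from D8 to D10 (adjusted p = 0.004) and -0.98 from D7 to D10 (adjusted p = 8.9e-04) were just under the fold threshold, and the second was called at -1.04 to -1.29 under 5 of the alternatives.

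Igfbp4, on chr11:99041244-99054392, encodes the binding protein that is cleaved by PAPP-A. It measured 12.63, 12.39 and 13.21 at D7, 13.21, 12.86 and 12.61 at D8, 11.78, 12.54 and 12.20 at D10, and 12.68, 12.95 and 12.95 at D28. The D10 libraries were below those of D8 and D28 and overlapped those of D7. The differences were between -0.72 and 0.69 (SE 0.21), and the 95% interval from D7 to D28 was -0.33 to 0.57.

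The level per kilobase puts the genes on a common scale, since longer transcripts collect more reads. At D7 the order from high to low was Igfbp7 (24388 units of equalized count per kilobase), Igfbp5 (3276), Igf2r (1780), Igfbp6 (1640), Igfbp4 (1598), Igf2 (1255), Igf1 (204), Igf1r (125), Igfbp3 (124) and Igfbp2 (85.6). The libraries of Igf2r, Igfbp6, Igfbp4 and Igf2 overlapped from each gene to the next, as did those of Igf1r and Igfbp3. At D28 Igfbp5 led with 21023 ± 4591 (SD, n = 3), followed by Igfbp7 with 9064 ± 219 and, with overlapping ranges from each to the next, Igfbp3 (2236), Igfbp6 (1796) and Igfbp4 (1693). Igf2r (735), Igf2 (223), Igf1r (168), Igf1 (93.6) and Igfbp2 (68.7) followed, and among these only Igf1 and Igfbp2 overlapped. At D8 and D10 the first 2 places were again Igfbp7 and Igfbp5, and Igf1 and Igfbp2 shared the last 2 places with overlapping libraries. At D8 the libraries of Igf1r and Igfbp2 overlapped as well.

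In rank among the 27896 genes with an annotated length, Igfbp5 went from place 292 at D7 to 147, 115 and 49 at D8, D10 and D28. Igfbp7 went from place 35 at D7 and D8 to 46 and then 117. Igfbp3 rose from place 6067 at D10 to 427 at D28, while Igf2 went from 756 at D7 to 5401 at D10 and 3961 at D28.

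The makeup of the 6 Igfbp transcripts changed between time points. Igfbp7 made up 78.3% ± 1.48 (SD, n = 3) of the summed level per kilobase at D7, and 69.4% ± 3.98 at D8, then 65.9% ± 5.93 at D10 and finally 25.6% ± 3.55 at D28. The share of Igfbp5 was 10.8% ± 2.08, 20.4% ± 1.83, 28.1% ± 6.46 and 58.2% ± 4.52 in the same order. Igfbp3 held 0.377% at D10 and 6.24% at D28. The sum of the 6 ranged from 25568 to 41378 over all libraries, with means of 31112, 34248, 33548 and 35880 per time point. The sum of both ligands was 1459, 790, 168 and 316, so that the Igfbp sum was 18.5 to 25.9 times the ligand sum at D7, 35.8 to 50.8 times at D8, 182 to 226 times at D10 and 105 to 121 times at D28. These are transcript ratios on the equalized scale, and no protein was measured.

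**Figure D3:**
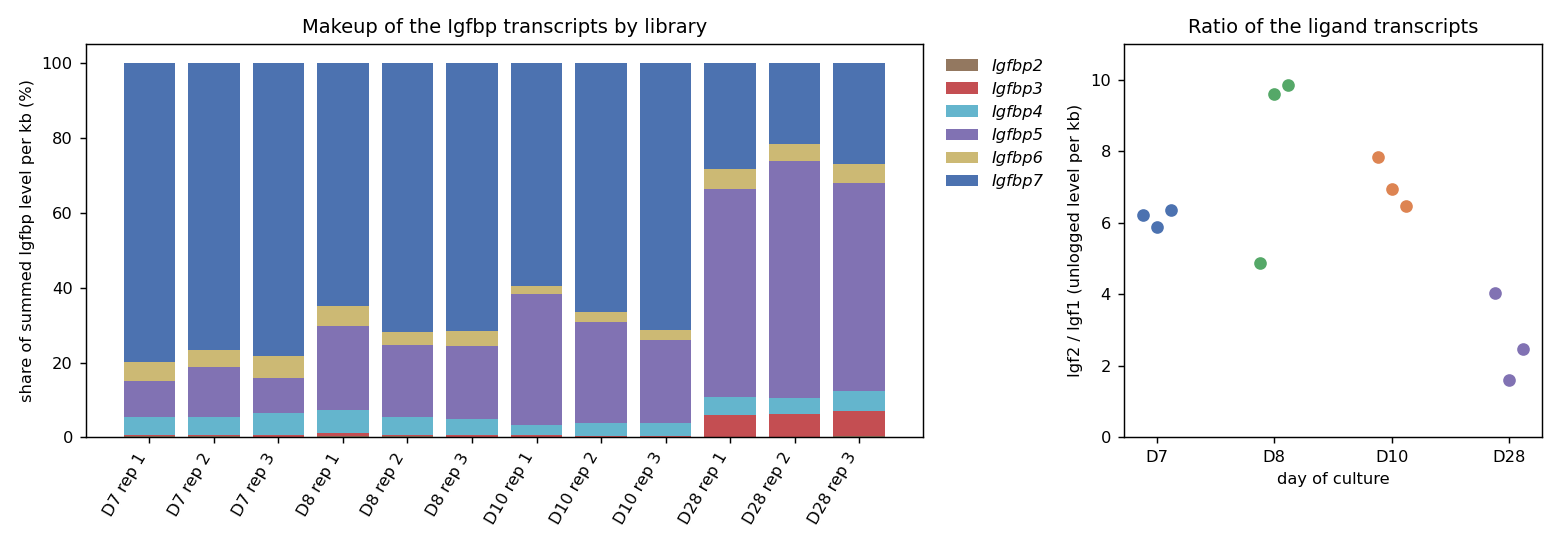
Left, share of each Igfbp transcript (percent of the summed unlogged level per kilobase, vertical axis) in the 12 libraries (horizontal axis). Right, unlogged level per kilobase of Igf2 divided by that of Igf1, 1 point per library; Igfbp5 makes up 55.5% to 63.4% of the Igfbp sum in the D28 libraries and the ligand ratio there is 1.61 to 4.03.

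Of the 54 other genes of the pathway, grouped by role, 50 were tested. From D7 to D8 the calls were 0 higher and 1 lower, beside 3.23% and 3.81% of all genes, and from D8 to D10 they were 1 and 6, beside 4.08% and 5.58%. From D7 to D10 they were 1 and 12, beside 8.50% and 10.4%. The comparison of D28 with D10 gave 13 and 3, beside 13.8% and 13.7%, and that of D28 with D7 gave 9 and 5, beside 8.63% and 8.66%. Among the other binding proteins Igfals, which encodes the acid-labile subunit that joins IGFBP3 and an IGF in a ternary complex in blood, followed Igfbp3 at D28. Igfals measured 5.89, 5.87 and 6.07 at D7, 6.51, 6.39 and 6.79 at D8, 4.45, 4.57 and 4.42 at D10, and 9.04, 10.19 and 9.48 at D28. No 2 time points overlapped. It fell by 1.47 from D7 to D10 (SE 0.26, adjusted p = 2.9e-04) and was 12.3-fold higher at D28 than at D7 (3.62, adjusted p = 3.9e-08). All 7 adipocyte, 3 of 7 osteoblast and 2 of 6 macrophage markers were also called higher from D7 to D28, and 2 osteoblast markers lower. The part of these cells in the Igfals level was not tested. Igfbp1, which lies 3539 bases from Igfbp3, was listed at 0 in every library, and Igfbpl1 was not called.

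Proteases that cleave the binding proteins and the inhibitors of those proteases were called lower in 4 of 7 tested genes from D7 to D10, beside 10.4% of all genes. Pappa2, a protease of IGFBP3 and IGFBP5, fell by 2.04 (SE 0.34, adjusted p = 2.0e-04), from 9.13 to 9.64 at D7 to 6.56 to 8.23 at D10. Stc2, the stanniocalcin that inhibits PAPP-A, fell by 1.74 (adjusted p = 2.7e-06). Adamts1, a secreted metalloproteinase, fell by 1.42 (adjusted p = 4e-05) and then rose by 2.90 to D28 (adjusted p = 1.1e-08), above its D7 level. Adam12 fell by 1.06 (adjusted p = 7.9e-05), and the value was -0.88 without D10 replicate 1, -0.99 without D7 replicate 1 and -0.80 without replicate 1 of every group. Pappa, Stc1 and Htra1 were not called in any comparison, and Adam28 was listed at 0.

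In the 22 genes of receptor signalling, of which 21 were tested, 0 were higher and 4 lower from D7 to D10, beside 8.50% and 10.4% of all genes, and 5 were higher and 1 lower from D10 to D28, beside 13.8% and 13.7%. Irs1, an adaptor that docks to the IGF1 receptor, fell by 1.40 to D10 (SE 0.16, adjusted p = 6.9e-06) and rose by 1.56 to D28 (adjusted p = 1.2e-06), from a mean of 9.37 back to 10.94 against 10.77 at D7. Irs2, the related adaptor, was at 10.52 to 10.80 at D28 against 9.02 to 9.20 at D7, a difference of 1.52 (adjusted p = 3.2e-06). Pik3r1, the regulatory subunit of the kinase PI3K, rose by 2.61 from D10 to D28 (adjusted p = 4.8e-11), while Pik3cb, a catalytic subunit, fell by 1.40 (adjusted p = 1.3e-06). Gab1, another docking adaptor, fell by 1.17 to D10 and rose by 1.73 to D28 (adjusted p = 3.8e-05 and 3.9e-07). Grb14, an adaptor that binds the insulin receptor, was the 1 pathway gene called from D7 to D8, with a fall of 1.03 (SE 0.13, adjusted p = 6.1e-05) that was -0.91 without D8 replicate 2 and -0.93 without replicate 2 of every group, and the call was also lost without D7 replicate 1. Grb10, which binds the IGF1 receptor and was also called lower from D7 to D10, stood at the threshold and was not called without D7 replicate 1, at -0.96, or without D10 replicate 3, at -0.95. Insr, the insulin receptor itself, was not called, with differences between -0.39 and 0.20. All 7 adipocyte markers rose from D10 to D28, as did the 5 signalling genes called higher, Gab1, Grb14, Irs1, Irs2 and Pik3r1. In that interval 4 of 7 osteoblast, 3 of 7 chondrocyte and 5 of 6 macrophage markers were also called higher. The part of any of these cells was not tested.

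In the list for the control of Igf2 RNA, 1 gene was higher and 2 were lower of 7 tested from D7 to D10, beside 8.50% and 10.4% of all genes. H19, the noncoding RNA 72622 bases from Igf2 that shares enhancers with it at the imprinted locus, measured 18.02, 18.02 and 17.65 at D7, 17.65, 17.56 and 18.02 at D8, 14.91, 15.44 and 15.23 at D10, and 17.38, 17.82 and 17.65 at D28. It fell 6.53-fold to D10 (-2.71, SE 0.24, adjusted p = 3.9e-07), in the interval in which Igf2 fell, and rose 5.37-fold to D28 (2.42, adjusted p = 6.3e-07), where Igf2 differed by 0.62. Igf2bp1, a protein that binds Igf2 mRNA, rose by 1.39 from D7 to D10 (SE 0.26, adjusted p = 5.0e-04) and fell by 1.93 to D28 (adjusted p = 1.5e-05). Igf2bp3, a related protein, fell by 1.04 from D10 to D28 (SE 0.18, adjusted p = 1.4e-04), and the value was -0.91 when the libraries were scaled by median of ratios and -0.83 without replicate 1 of every group. It was -0.92 without D10 replicate 1 and -0.95 without D28 replicate 1. Lin28b was listed at 0.

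The growth hormone axis, which controls Igf1 and Igfals in liver, was called higher in 4 of 6 genes from D7 to D28, beside 8.63% of all genes, and in 5 of 6 from D10 to D28, beside 13.8%. Ghr, the growth hormone receptor, measured 10.03, 10.21 and 10.16 at D7, 9.68, 9.58 and 9.94 at D8, 8.75, 9.02 and 8.94 at D10, and 12.02, 12.06 and 12.31 at D28. No D10 library reached the other time points and all D28 libraries were above them. Ghr fell by 1.23 to D10 (SE 0.12, adjusted p = 1.1e-06) and rose 9.36-fold to D28 (3.23, adjusted p = 1.4e-11). Socs2 and Cish, feedback inhibitors that are targets of this receptor, rose by 2.13 and 2.15 from D7 to D28 (adjusted p = 5.6e-09 and 4.1e-06), and Stat5a, a transcription factor of the pathway, by 1.15 (adjusted p = 4.1e-06). Stat5b, the related factor, rose by 1.39 from D10 to D28 (adjusted p = 4.2e-07). Jak2, the kinase bound to the receptor, differed by 0.55 from D7 to D28 (adjusted p = 3.6e-04, not called). The adipocyte markers given above moved with these genes at D28. So did the osteoblast, chondrocyte and macrophage markers called higher from D10 to D28, and the part of these cells was not tested.

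**Figure D4:**
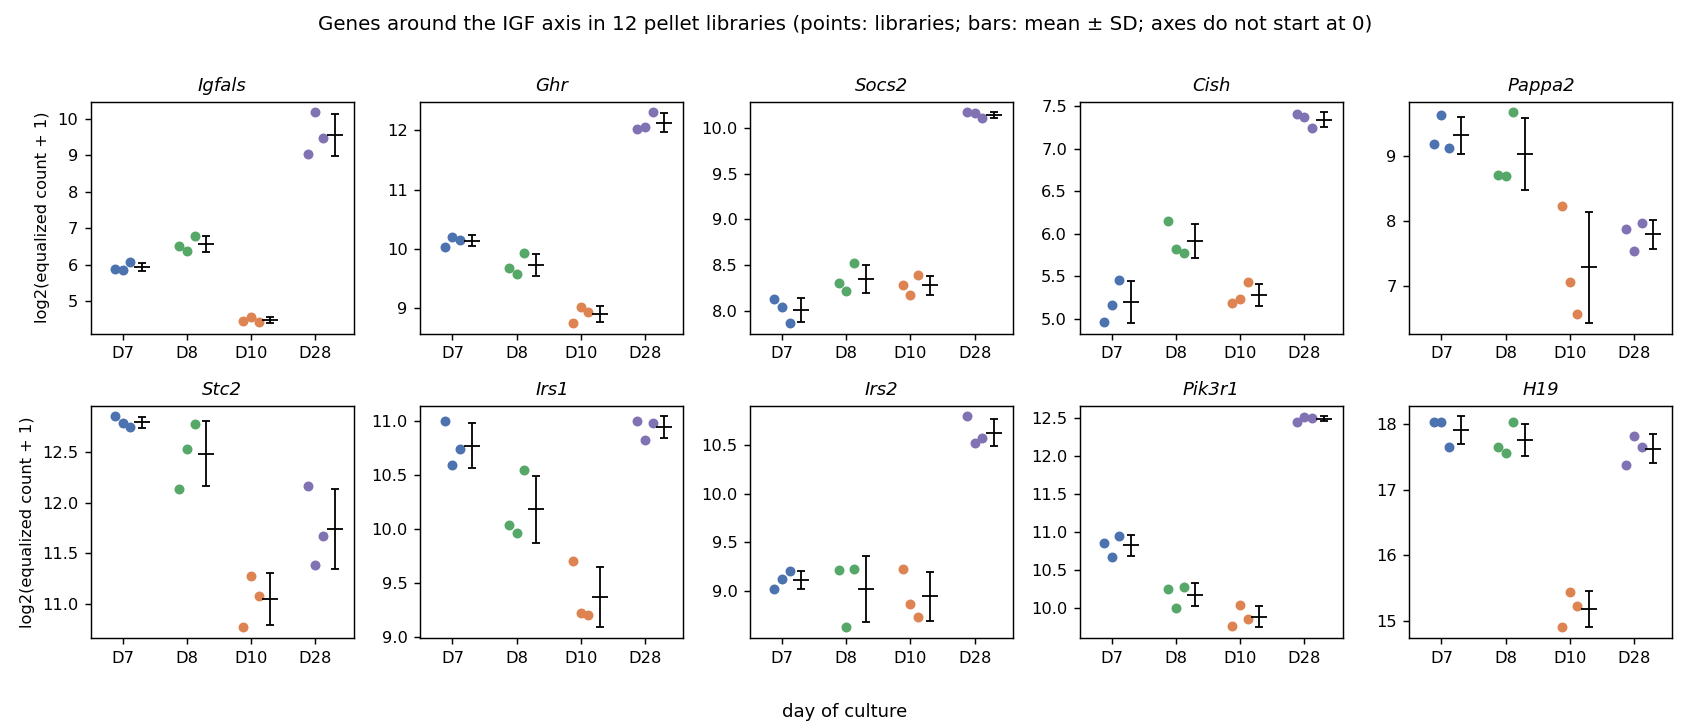
Deposited log2 values (vertical axes, equalized count plus 1) of 10 further genes of the pathway at the 4 time points (horizontal axes); each point is a library and bars give the mean ± SD of 3 libraries. Igfals, Ghr, Irs1, Pik3r1, Stc2, Pappa2 and H19 have their lowest mean at D10, and Igfals reaches 9.04 to 10.19 at D28.

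The genes whose values followed each member most closely were sought by Pearson r over the 12 libraries among 12181 genes with a mean log2 value of at least 5. The 12 points share 4 time points and 1 equalization, so r is a description. Igf1 was nearest to Olfml2a (r = 0.98), Mfap4 (0.977) and Megf6 (0.976), and Igf2 to Cpxm2 (0.981), Grb10 (0.978) and Capn6 (0.977). Grb10, itself imprinted, was at 13.72 at D7, 12.72 at D10 and 12.89 at D28 (means). Igf1r was nearest to Ckb, Fzd4 and Samhd1 (0.991 to 0.992), and Igf2r to Cda, Cilp2 and Fgd5 (0.986 to 0.99). For the binding proteins the nearest genes were Grem1, Il34 and Adig for Igfbp5 (0.976 to 0.985), Peli3, Pdlim1 and Acpp for Igfbp3 (0.986 to 0.992), and 4833439L19Rik, Itga5 and Pmepa1 for Igfbp7 (0.982 to 0.988). The nearest genes were less close for Igfbp2 (Tfr2, Adm and Smpdl3b, 0.874 to 0.908), Igfbp4 (R3hdm4, Galnt4 and Rab1b, 0.936 to 0.944) and Igfbp6 (Thnsl2, Tnrc18 and Fam234a, 0.965 to 0.966). Between members the values were 0.97 for Igf2r with Igfbp7, -0.96 for Igf2r with Igfbp3, 0.90 for Igfbp4 with Igfbp6 and 0.82 for Igf1 with Igf2.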

How the data were processed

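RNA was measured in 12 pellet libraries. The authors trimmed reads with Trimmomatic 0.36, aligned them with HISAT2, annotated with Cufflinks, counted with HTSeq and equalized the counts in Matlab; the deposited unit is log2, taken after a pseudocount of 1 was added to each equalized count. The submitters' notes name GRCm38, and the supplementary methods a human build. Equalized values carry no length scaling and no original totals, and the strand setting of the counting is not given in the sources used here. Precision is limited by 3 libraries a group. Read levels were inferred from the lowest distinct nonzero values of each equalized library and are not counted reads.

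A gene was tested if 3 or more libraries had a log2 value of 1 or above, with limma 3.58.1 in R 4.3.3 on all 12 libraries, with 4 group means, a variance trend, residual degrees of freedom 8 and prior degrees of freedom 7.23. P-values are two-sided and Benjamini-Hochberg adjusted over all 17674 genes tested. The procedure was tested on simulated data. Lengths are exon unions of GENCODE M21. The smallest two-sided exact permutation p for 3 against 3 is 0.10, so single values were not tested that way.

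Named were the 10 members, pathway genes with a call, and the 3 tested genes nearest each member; marker genes and pathway genes without a call were named after their values were seen. Members and lists were chosen with earlier results of these data known. Alternatives covered filter, scaling, pseudocount, low values, variance prior, groups fitted, replicate block, fold threshold, transcript length and libraries left out. Figures were drawn with matplotlib 3.10.9.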

Additional observations from a re-analysis of the deposited data

How the results depend on the processing

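Over 23 settings, 805 of 850 alternative values of the members kept both their direction and their side of the threshold, 7 lost the call and 15 gained it. The lost and gained calls of Igf1, Igf2 at D8, Igf1r, Igf2r, Igfbp2, Igfbp5 and Igfbp6 against D7 stand beside their results. The other 23 values changed sign, all when a library was left out, and 0 of them was called. With libraries left out, the differences from D7 to D8 ranged from -0.01 to 0.18 for Igfbp2, -0.06 to 0.53 for Igfbp4, -0.34 to 0.15 for Igfbp6 and -0.20 to 0.11 for Igfbp7. From D8 to D10 Igfbp7 ranged from -0.19 to 0.01. From D7 to D10 the ranges were -0.35 to 0.18 for Igfbp3 and -0.36 to 0.00 for Igfbp7, and from D7 to D28 they were -0.10 to 0.35 for Igfbp4 and -0.09 to 0.42 for Igfbp6. Igfbp6 from D8 to D10 passed the fold threshold without D8 replicate 2 and, at -1.08, without replicate 2 of every group. Of 867 values of called pathway genes 26 lost the call, some of them given beside their genes, and Stc2 from D7 to D28 went to -0.88 without D28 replicate 2. The settings for Airn were added after its values were seen. The number of members called from D7 to D8 ranged from 1 to 3 when libraries were left out, and it was 1 without replicate 1.

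At a stricter fold threshold of 2 log2 units, the genes differing numbered 388 from D7 to D8, 532 from D8 to D10, 1342 from D7 to D10, 2095 from D10 to D28 and 1356 from D7 to D28. With the longest transcript as length, the mean log2 ratio of Igf2 to Igf1 per kilobase was 2.41 at D7 (2.62 with exon unions) and 2.61 at D10 (2.82).

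Libraries with the same replicate number did not deviate together: the correlations of the 18 pairs were -0.058 to 0.066 and 3 libraries were nearest to their own number. With the replicate block the counts were 1210, 1691, 3326, 4825 and 3030 in the order above, against 1244, 1708, 3340, 4854 and 3057 without it, and no member's call changed. The depth limits genes near the 3-read level, where none of the members lies.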
